A study of Mus musculus with 2 samples.

Results

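The 8 genes described here encode 6 receptors and 2 ligands of the BMP and activin branches of the TGF-β family: the type I receptors *Bmpr1a*, *Acvr1* and *Acvr1b*, the type II receptors *Bmpr2*, *Acvr2a* and *Acvr2b*, and the ligands *Bmp4* and *Gdf3*. They were chosen by name from the 31053 genes counted, for their role in the pathway, though with earlier results of these data known. All 8 were found in both libraries. The libraries are single-cell RNA-seq of parental E14 mESCs (WT) and of E14 mESCs in which *Smad1* and *Smad5* were targeted with CRISPR-Cas9 (S1/5 dKO), with 1 library per genotype. E14 is a mouse embryonic stem cell line. Both cultures were grown without feeder cells on gelatin in SL, a medium with 15% FBS and 1000 U/ml LIF, and the labels name no added BMP4. Which S1/5 dKO line was sequenced is not given in the sources used here, and 1 line is compared with its parental line.

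BMPs bind a complex of type I and type II receptors, in which the type II receptor phosphorylates the type I receptor and the type I receptor then phosphorylates R-SMADs. BMPR1A and ACVR1 (also called ALK3 and ALK2) act on SMAD1 and SMAD5, and ACVR1B (ALK4) acts on SMAD2 and SMAD3, while BMPR2 mainly serves BMPs and ACVR2A and ACVR2B serve BMPs, activins and NODAL. In mESCs, BMP4 together with LIF sustains self-renewal, and *Id1* is a classical target of the BMP–SMAD pathway.

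The kit (Chromium 3′ v3) tags each captured mRNA near its 3′ end with a unique molecular identifier (UMI), so a level is the number of UMIs of a gene per 1000000 UMIs of the cells (CPM) and needs no correction for transcript length. A barcode counted as a cell with 1000 or more genes detected and no more than 5% of its UMIs mitochondrial, which gave 2236 cells in WT (95965242 UMIs, median 38662 per cell) and 2910 in the second library (109020533 UMIs, median 34548.5 per cell), and no cell barcode was shared. *Pou5f1* (1316 and 1292 CPM), *Sox2* (241 and 244 CPM), *Nanog* (138 and 142 CPM) and *Zfp42* (847 and 875 CPM), markers of mESCs, were at like levels in both. *Smad1* was at 13.4 CPM in WT against 9.17 CPM in the second library (log2 ratio −0.55). *Smad5* was at 6.05 and 9.09 CPM (log2 ratio 0.59), so its mRNA was not lower in the second library. A 3′ tag need not cover the edited bases, so neither value checks the knockout, and the second library is called the S1/5 dKO-labelled library, after its label only. *Id1* was at 323 CPM in WT against 161 CPM in the S1/5 dKO-labelled library (log2 ratio −1.01). The paper reads lower *Id1* and *Id3* in the S1/5 dKO cells as showing the effect of the knockout. With 1 library per genotype no difference between genotypes could be tested, and the 95% intervals (exact Poisson for CPM, exact conditional for ratios, exact binomial for shares) cover counting error only.

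All 6 receptors were detected in both libraries, at levels that spanned from 0.802 to 17.4 CPM in WT, and the ligands were more abundant than any of the 6. *Bmpr1a* was the most abundant type I receptor of the 3, *Acvr2b* the most abundant type II receptor of the 3, and *Gdf3* exceeded *Bmp4*. Between the libraries, *Bmp4* was 1.28-fold higher in the S1/5 dKO-labelled library, *Bmpr1a* and *Gdf3* were lower by less than 1.2-fold, and the intervals of the other 5 ratios held 0. Of the 8 genes, 1 was at least 1.2-fold higher in the S1/5 dKO-labelled library and 0 were at least 1.2-fold lower, where 9.13% and 11.4% of the 13654 genes that had 50 or more UMIs in all were. The median log2 ratio was −0.00 for the 8 genes and −0.01 for the 13654.

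**Figure D1:**
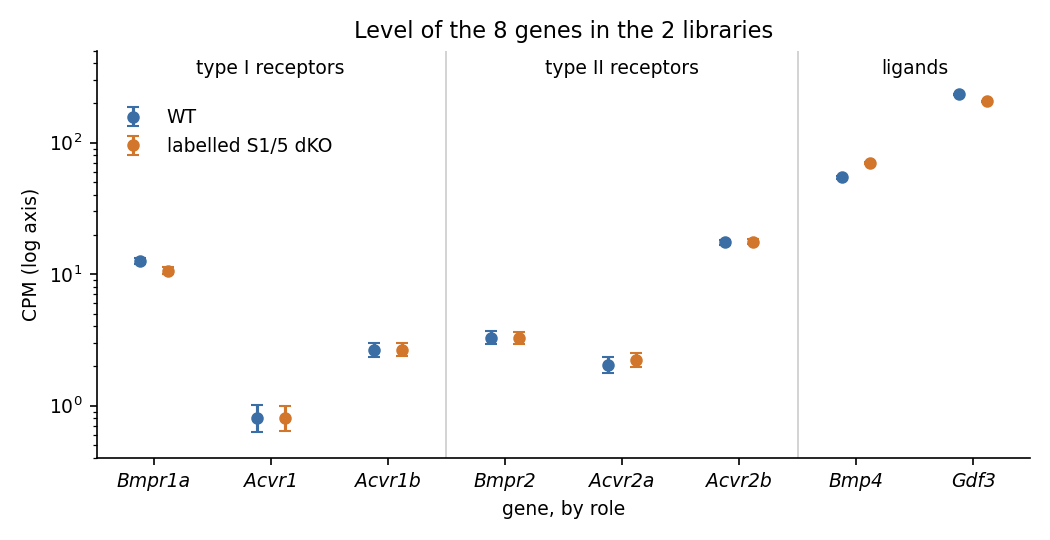
Level of each of the 8 genes in CPM, on a log axis, in WT and in the S1/5 dKO-labelled library, ordered by role. Points are UMIs over all cells of the library and bars are exact 95% Poisson intervals, smaller than the points for the ligands. *Gdf3* and *Bmp4* lie above the 6 receptors, and *Acvr1* is the lowest at 0.802 and 0.798 CPM.

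The promoters of *Bmpr1a* and *Bmp4*, the members with the lowest and the highest ratio, are shown for comparison, as RefSeq gives them on GRCm38.p6, from 250 bases before to 50 bases after the transcription start. Capitals mark GGCGCC, a GC-rich element that SMAD1 and SMAD5 can bind and that is its own reverse complement, and GGGCGG or its reverse complement CCGCCC, the GC box that SP1 binds. The genes lie on the minus strand of chromosome 14, *Bmpr1a* with the window chr14:34502497-34502796 and *Bmp4* with the window chr14:46390620-46390919, and each sequence is written 5′ to 3′ on the strand of its gene.
Bmpr1a: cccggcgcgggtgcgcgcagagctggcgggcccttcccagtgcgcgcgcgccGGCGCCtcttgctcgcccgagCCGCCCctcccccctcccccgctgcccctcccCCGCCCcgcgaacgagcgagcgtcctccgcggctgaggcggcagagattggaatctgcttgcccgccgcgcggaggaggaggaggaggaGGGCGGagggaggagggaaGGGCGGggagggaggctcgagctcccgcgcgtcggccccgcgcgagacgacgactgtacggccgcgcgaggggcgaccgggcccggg
Bmp4: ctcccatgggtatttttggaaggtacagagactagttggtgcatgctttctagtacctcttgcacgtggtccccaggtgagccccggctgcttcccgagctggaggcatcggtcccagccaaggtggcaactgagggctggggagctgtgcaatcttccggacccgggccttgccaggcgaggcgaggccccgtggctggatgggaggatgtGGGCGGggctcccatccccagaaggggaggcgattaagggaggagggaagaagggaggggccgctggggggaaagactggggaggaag
The *Bmpr1a* window held 1 GGCGCC, at position −198 relative to the start, 4 GC boxes and 48 CpG dinucleotides, and the *Bmp4* window held 0 GGCGCC, 1 GC box and 12 CpGs. Of 32851 mouse promoters of this length, 11.9% held GGCGCC, 35.7% held a GC box on either strand, and the median had 7 CpGs. Of the 8 members, 7 had a promoter in the table (*Gdf3* had none). *Acvr1b* (position 19) and *Bmpr2* (position −105) also held 1 GGCGCC each, while *Acvr1*, *Acvr2a* and *Acvr2b* held none. All 7 windows held at least 1 GC box, and their GC content ran from 59.3% (*Bmpr2*) to 83.7% (*Acvr1*), where the median promoter had 52.7%. GENCODE, used here for other gene positions, starts *Bmpr1a* (chr14:34503341), *Acvr1* and *Bmpr2* upstream of these windows. For them, positions relative to the start depend on the annotation. Matches that overlap were each counted, and they describe these letters only. No binding was measured in these files.

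Among the type I receptors, *Bmpr1a*, the main BMP type I receptor of the early embryo, was at 12.6 CPM in WT (1206 UMIs, 95% interval 11.9 to 13.3) against 10.6 CPM in the S1/5 dKO-labelled library (1155 UMIs, 9.99 to 11.2). Its log2 ratio of −0.25 (−0.36 to −0.13) was above that of 12.4% of the genes tested and below that of 19 of its 20 nearest genes on chromosome 14, whose median ratio was −0.02. *Acvr1b*, the type I receptor for activin and NODAL, was at 2.67 CPM in WT against 2.66 CPM in the S1/5 dKO-labelled library, from 256 and 290 UMIs, with a log2 ratio of −0.00 (−0.25 to 0.24). *Acvr1*, the second BMP type I receptor, was near the limit of what these libraries resolve, at 0.802 CPM (77 UMIs) and 0.798 CPM (87 UMIs), and the interval of its ratio ran from −0.47 to 0.45. The levels thus fell in the order *Bmpr1a*, *Acvr1b*, *Acvr1* in both libraries, with intervals that did not overlap. *Bmpr1a* UMIs outnumbered those of *Acvr1* 15.7-fold in WT (12.4 to 19.99) and 13.3-fold in the S1/5 dKO-labelled library (10.7 to 16.7). UMIs of the 3 type I receptors summed to 16.0 CPM in WT against 14.1 CPM in the S1/5 dKO-labelled library, a log2 ratio of −0.19 (−0.29 to −0.09), and *Bmpr1a* gave 1206 of the 1539 WT UMIs.

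The 3 type II receptors gave ratios near 0, with intervals that held it. *Acvr2b* was at 17.4 CPM in WT (1672 UMIs, 16.6 to 18.3) against 17.6 CPM in the S1/5 dKO-labelled library (1917 UMIs, 16.8 to 18.4). Its log2 ratio of 0.01 had the narrowest interval of the receptors, −0.08 to 0.11. *Bmpr2*, whose long cytoplasmic tail sets it apart from the other type II receptors, was at 3.28 and 3.27 CPM (315 and 357 UMIs), with a log2 ratio of −0.00 (−0.23 to 0.22). *Acvr2a* was at 2.04 and 2.23 CPM (196 and 243 UMIs), with a log2 ratio of 0.13 (−0.15 to 0.41). *Acvr2b* UMIs outnumbered those of its paralogue *Acvr2a* 8.53-fold in WT (7.35 to 9.94) and 7.89-fold in the S1/5 dKO-labelled library (6.90 to 9.05), and those of *Bmpr2* 5.31-fold and 5.37-fold. In the order of levels over all 6 receptors, *Acvr2b* and *Bmpr1a* led, the intervals of *Bmpr2* and *Acvr1b* overlapped in both libraries, those of *Acvr1b* and *Acvr2a* overlapped in the S1/5 dKO-labelled library, and *Acvr1* was below all of them. The 3 type II receptors summed to 22.7 CPM in WT against 23.1 CPM in the S1/5 dKO-labelled library (log2 ratio 0.02, −0.06 to 0.10). *Acvr2a* overlaps *Orc4* on the other strand, which had 3185 UMIs in WT and 3668 in the S1/5 dKO-labelled library. Whether counting used the strand is not given in the sources used here, so its few UMIs are less certain than those of the other members.

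*Bmp4* was at 54.7 CPM in WT (5249 UMIs, 53.2 to 56.2) against 70.1 CPM in the S1/5 dKO-labelled library (7645 UMIs, 68.6 to 71.7). The log2 ratio of 0.36 (0.31 to 0.41) was above that of 94.1% of the genes tested. Of its 20 nearest genes on chromosome 14, 0 had a higher ratio, and their median was −0.06. Among the 8160 genes with at least 1000 UMIs, which like *Bmp4* have narrow intervals, 3.59% were at least 1.2-fold higher there and 4.19% at least 1.2-fold lower. *Gm15222*, a gene that overlaps *Bmp4* on the other strand, had 117 and 126 UMIs in WT and the S1/5 dKO-labelled library. *Gdf3*, a ligand of the NODAL class that can also bind and block BMPs, was the most abundant member at 233 CPM in WT (22343 UMIs, 230 to 236) against 206 CPM in the S1/5 dKO-labelled library (22477 UMIs, 203 to 209). It ranked 689th of all genes by WT level. Its log2 ratio was −0.18 (−0.20 to −0.15), and 18 of its 20 neighbours on chromosome 6, which include *Nanog* (log2 ratio 0.04), had a higher one. With *Bmp4* higher and *Gdf3* lower, *Gdf3* UMIs outnumbered those of *Bmp4* 4.26-fold in WT (4.13 to 4.39) and 2.94-fold in the S1/5 dKO-labelled library (2.87 to 3.02).

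The share of cells with a UMI depends on depth, so each cell was also thinned to 10000 UMIs, leaving 2193 WT cells and 2843 S1/5 dKO-labelled cells, with 43 and 67 shallower cells left out. At full depth *Gdf3* was seen in 98.0% of WT cells and 96.9% of S1/5 dKO-labelled cells, *Bmp4* in 71.1% and 72.8%, *Acvr2b* in 48.2% and 44.9%, and *Bmpr1a* in 38.4% and 31.1%. The other 4 receptors were seen in 2.89% to 12.6% of cells. Averaged over all possible thinnings, the share for *Bmp4* was 36.4% (34.4 to 38.5) in WT and 43.0% (41.2 to 44.8) in the S1/5 dKO-labelled library. *Bmp4* was the only member of the 8 whose thinned intervals did not overlap, where those of 4.92% of the 13654 genes did not. For *Bmpr1a* the thinned shares were 11.8% (10.5 to 13.2) and 10.0% (8.96 to 11.2), for *Acvr2b* 15.9% in both libraries, and for *Gdf3* 86.5% (85.0 to 87.9) and 83.7% (82.3 to 85.1). The cultures hold no cell type known to lack these genes, so barcodes of 10 to 100 UMIs (median 21 and 24), which hold free RNA and no cell, served as background. They carried from 0% to 0.0861% of the UMIs that a cell had of the same member, a share that is small for any gene because such barcodes hold few UMIs. In CPM, *Bmpr1a* (13.3 against 10.6), *Acvr1* and *Acvr1b* were higher in these barcodes than in cells of the S1/5 dKO-labelled library. These CPM came from 26, 2 and 7 UMIs in the barcodes. The other members were lower in the barcodes than in cells there, and in WT all 8 were.

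Cells differed in *Bmp4* more than counting alone would give. In thinned cells the variance of *Bmp4* over its mean was 1.38 in WT and 1.45 in the S1/5 dKO-labelled library, above that of 95.7% and 96.2% of the genes seen in at least 5% of cells, and for *Gdf3* it was 1.30 and 1.28. Thinned means per cell were 0.511 and 0.690 for *Bmp4* and 2.25 and 1.99 for *Gdf3*. At the same relative spread this variance ratio is larger for a higher mean. Genes were not matched for level, so the percentages do not rank spread alone. A gene scattered by counting alone gives about 1, and the median gene gave 1.04. *Bmpr1a* (0.97 and 0.99) and *Acvr2b* (1.04 and 1.01) were at that level, so at this depth no spread between cells was detectable for them. In 1 random thinning, cells with at least 3 *Bmp4* UMIs made up 3.06% of WT cells and 5.87% of S1/5 dKO-labelled cells.

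Co-detection of receptors was lower in thinned cells than at full depth. At full depth 45.6% of WT cells (43.5 to 47.7) had a UMI of any of the 3 type I receptors, 57.9% (55.8 to 60.0) of any of the 3 type II receptors, and 28.9% (27.1 to 30.9) of both kinds. In the S1/5 dKO-labelled library these shares were 38.3%, 53.8% and 22.8%. After 1 random thinning they were 14.8%, 21.0% and 3.24% in WT, and 13.0%, 21.7% and 2.74% in the S1/5 dKO-labelled library. No receptor of the 6 was seen in 25.4% of WT cells and 30.7% of S1/5 dKO-labelled cells, and in 1 random thinning in 67.4% and 68.0%. A cell without a UMI is therefore not shown to lack the receptor. Among pairs of the 8 members, Pearson's r across thinned cells stayed within 0.072 of 0 in both libraries, which in counts this sparse is no finding.

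The cells were clustered without the 8 members and the other genes of the pathway. Clusters 0 to 3 held 95.3% of WT cells and 96.8% of S1/5 dKO-labelled cells. Cluster 0 was led by *Hist1h2ap*, *Nptx2*, *Hist1h2bc*, *Shisa8* and *Cabp1*, cluster 1 by *Sp5*, *Tagln*, *Fgfbp1*, *S100a6* and *Tfap2c*, cluster 2 by *Gna15*, *Fam110a*, *Fzr1*, *Arhgef39* and *Fam83d*, and cluster 3 by *mt-Nd6*, *Hist2h2aa1*, *Zfp600*, *Gm14412* and *Hist1h1c*. Only the lists of 2C-like, ER-like and ribosomal RNA markers could give a name, and none of the 4 met the criteria for it. Of 6 genes of the G2/M phase of the cell cycle, 3 were raised in cluster 2, and 1 of these was among its leading genes. In the other large clusters 0 or 1 of the 6 were raised. *Bmpr1a* was highest in cluster 3, at 17.6 CPM in WT (15.6 to 19.8) against 15.3 CPM in the S1/5 dKO-labelled library (13.6 to 17.1), against 11.5 to 11.7 CPM and 8.89 to 10.0 CPM in the other 3. Its log2 ratio was negative in all 4 clusters, from −0.39 to −0.20, with an interval that left out 0 in cluster 2. *Acvr2b* was nearly flat, with 16.3 to 19.8 CPM over the 4 clusters of both libraries.

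*Bmp4* was lowest in cluster 1, at 39.4 CPM in WT against 53.6 CPM in the S1/5 dKO-labelled library, and highest in cluster 2, at 67.0 and 80.7 CPM. It was at 48.6 and 69.7 CPM in cluster 0 and at 61.1 and 79.9 CPM in cluster 3. In each of the 4 clusters the S1/5 dKO-labelled library was higher, with log2 ratios of 0.52 (0.42 to 0.62), 0.44 (0.31 to 0.58), 0.27 (0.19 to 0.35) and 0.39 (0.27 to 0.50) in clusters 0 to 3. *Gdf3* was highest in cluster 1 (263 CPM in WT, 220 in the S1/5 dKO-labelled library) and lowest in cluster 3 (217 and 174 CPM), and was lower in the S1/5 dKO-labelled library in all 4 (log2 ratios from −0.32 to −0.12). With the UMIs of both libraries added, the highest cluster was at least 1.5 times the lowest for 6 of the 8 members, where 45.4% of the 13654 genes reached that. This share rose as counts fell, from 17.2% of genes with 10000 to 100000 UMIs, the class of *Bmp4* and *Gdf3*, over 38.7% of genes with 1000 to 10000 UMIs, the class of *Bmpr1a* and *Acvr2b*, to 61.9% of genes with 100 to 1000 UMIs, the class of the other 4 receptors. *Bmp4* ranged 1.52-fold (1.45 to 1.60), *Bmpr1a* 1.59-fold (1.42 to 1.78) and *Gdf3* 1.22-fold (1.19 to 1.26).

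**Figure D2:**
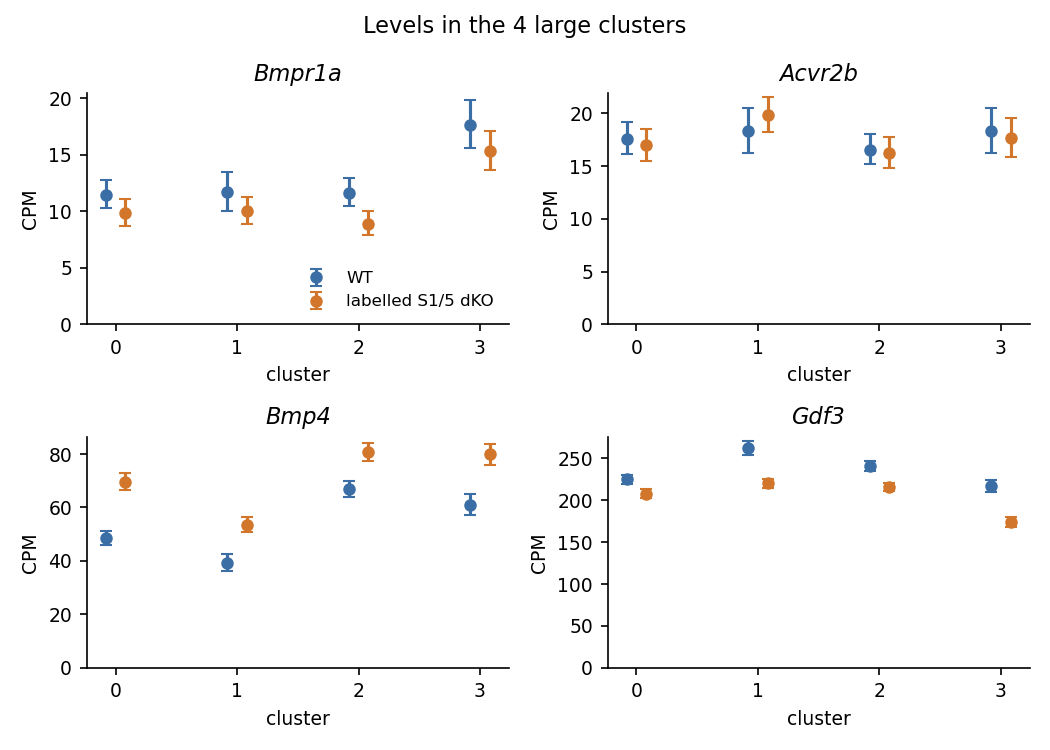
Level in CPM, from 0, of *Bmpr1a*, *Acvr2b*, *Bmp4* and *Gdf3* in clusters 0 to 3 of WT and of the S1/5 dKO-labelled library, with exact 95% Poisson intervals. *Bmpr1a* is highest in cluster 3 of both libraries, *Bmp4* is lowest in cluster 1 and higher in the S1/5 dKO-labelled library in each cluster, and *Gdf3* is lower there in each cluster.

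**Figure D3:**
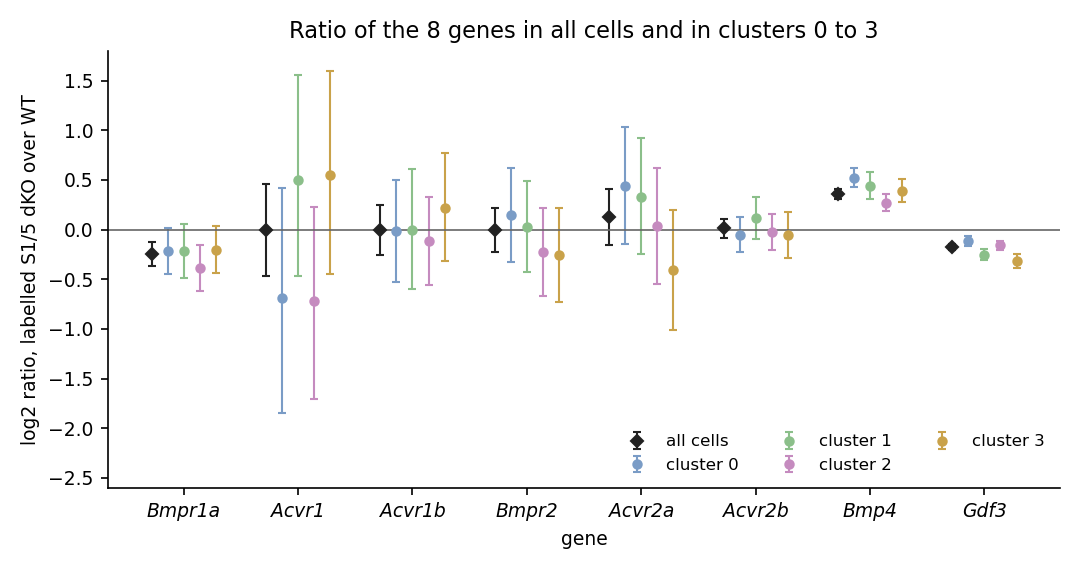
Log2 ratio of the S1/5 dKO-labelled library over WT for the 8 genes, in all cells and in clusters 0 to 3, with exact 95% intervals for counting error. The *Bmp4* intervals lie above 0 and the *Gdf3* intervals below 0 throughout, and those of *Acvr1*, *Acvr1b*, *Bmpr2*, *Acvr2a* and *Acvr2b* hold 0 throughout.

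The small clusters held few UMIs of the members. The ER-like cluster 5 (59 WT cells and 25 S1/5 dKO-labelled cells), named from 12 of 12 raised markers of endoplasmic reticulum stress, had *Bmp4* at 40.1 and 66.3 CPM and *Gdf3* at 149 and 174 CPM. The 2C-like cluster 6 (10 and 13 cells), named from 13 of 16 markers of the 2-cell stage, had *Bmp4* at 32.2 and 15.6 CPM from 14 and 6 UMIs. Cluster 4 (36 and 55 cells) was led by *AY036118* and *Gm42418* and had a median of 4552.5 and 3836 UMIs per cell. These are the only 2 of the 4 listed ribosomal RNA markers that were counted, and both were raised. The cluster stayed unnamed because a name needed more raised markers than the list could give. It had 0 UMIs of *Bmpr1a*, *Acvr1*, *Acvr1b* and *Bmpr2* in either library, which allows up to 16.6 CPM in WT and 12.6 CPM in the S1/5 dKO-labelled library by the exact Poisson interval.

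Across cell cycle phases scored on thinned cells, *Bmp4* in WT was at 50.4 CPM in G1, 48.9 CPM in S and 61.7 CPM in G2/M, and in the S1/5 dKO-labelled library at 64.3, 71.1 and 72.7 CPM. Its log2 ratio was 0.35 (0.25 to 0.46) in G1, 0.54 (0.44 to 0.63) in S and 0.24 (0.16 to 0.31) in G2/M. *Gdf3* was lowest in S in both libraries, at 210 CPM in WT against 244 in G1 and 243 in G2/M, and at 188 CPM in the S1/5 dKO-labelled library against 222 and 211. *Bmpr1a* was at 10.5, 14 and 12.9 CPM in G1, S and G2/M of WT, and at 9.80, 11.9 and 10.1 CPM in the S1/5 dKO-labelled library. *Acvr2a* had 1 phase, S, in which its interval left out 0 (49 and 84 UMIs, log2 ratio 0.57, 0.05 to 1.11), and such an interval is not corrected for the number looked at.

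No gene reached an r of 0.2 with any member across WT cells. The highest value was 0.17, for *Bmp4* with *Tmsb4x* (0.13 in the S1/5 dKO-labelled library). In the S1/5 dKO-labelled library, however, the gene most like *Bmp4* of 3667 compared was *Id1*, with r = 0.23 over 2843 cells, against r = 0.01 over 2193 WT cells. The cells of each r share 1 library and 1 thinned depth, and this pair was looked at after its values were seen. The *Bmp4* counts by *Id1* class restate this r in the same cells and the same random thinning, so they add no support to it. In the S1/5 dKO-labelled library, thinned cells with 0 *Id1* UMIs had 0.504 *Bmp4* UMIs per cell (0.466 to 0.545, 1265 cells), cells with 1 or 2 had 0.691 (0.640 to 0.745, 991 cells), and cells with 3 or more had 1.09 (1.00 to 1.18, 587 cells). In WT the same classes had 0.460 (0.408 to 0.516, 631 cells), 0.549 (0.497 to 0.605, 740 cells) and 0.516 (0.468 to 0.567, 822 cells). A class is not the same part of each library. Cells with 0 *Id1* UMIs made up 28.8% of WT and 44.5% of S1/5 dKO-labelled cells, and those with 3 or more made up 37.5% and 20.6%. In this thinning the log2 ratio of *Bmp4* over all cells was 0.43. By class it was 0.13 (−0.07 to 0.34) in cells with 0 *Id1* UMIs, 0.33 (0.15 to 0.51) with 1 or 2, and 1.08 (0.90 to 1.26) with 3 or more. *Bmp4* varied more than counting alone, so these intervals are too narrow.

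Within clusters 0 to 3 of the S1/5 dKO-labelled library, r was 0.15, 0.22, 0.21 and 0.28, and in each of them *Bmp4* per cell was higher in the class with more *Id1*, for example 0.628, 0.839 and 1.33 in cluster 3. Within the same clusters of WT, r was 0.09, −0.09, 0.04 and −0.04. There *Bmp4* per cell, from the class with the least *Id1* to that with the most, was 0.345, 0.470 and 0.557 in cluster 0. It was 0.509, 0.398 and 0.337 in cluster 1, 0.568, 0.595 and 0.685 in cluster 2, and 0.538, 0.746 and 0.455 in cluster 3. The WT clusters thus went in different directions. Over all cells r was 0.23 in the S1/5 dKO-labelled library without cells of over 2 times the median UMIs, and 0.12 when cells were thinned to 5000 UMIs, and in WT it was −0.00 and 0.03. The 2 other *Id* genes examined gave −0.03 (*Id2*) and 0.10 (*Id3*) with *Bmp4* in the S1/5 dKO-labelled library, and −0.08 and −0.05 in WT. *Id1* and *Gdf3* gave −0.06 and −0.01. No difference between the libraries in these values was tested.

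**Figure D4:**
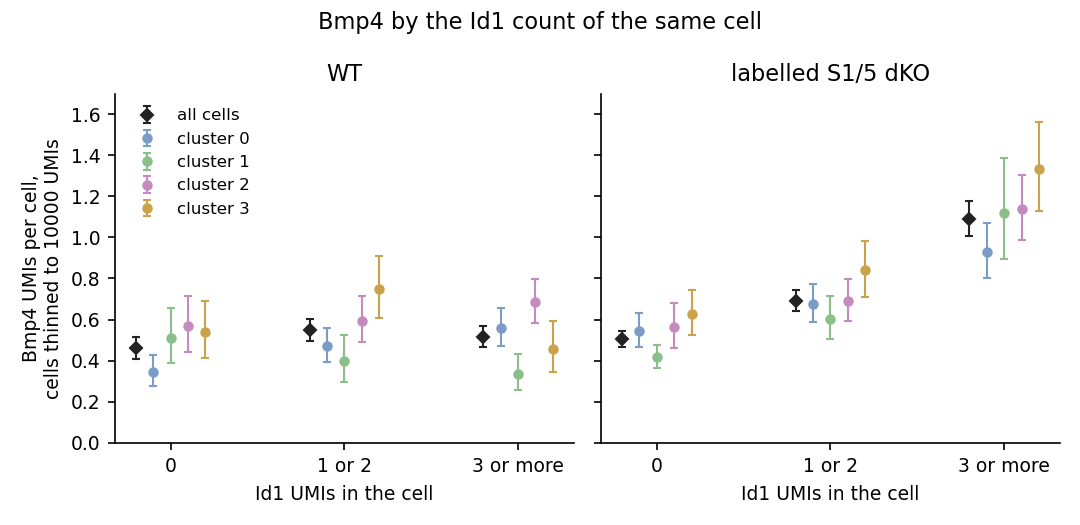
*Bmp4* UMIs per cell, in cells thinned to 10000 UMIs, for cells with 0, 1 or 2, and 3 or more *Id1* UMIs, over all cells and in clusters 0 to 3, with exact 95% Poisson intervals. In the S1/5 dKO-labelled library the value goes from 0.504 to 1.09 over all cells and is higher in each cluster with more *Id1*. In WT it stays between 0.460 and 0.549 over all cells, but the clusters differ in direction. It rises from 0.345 to 0.557 in WT cluster 0 and falls from 0.509 to 0.337 in WT cluster 1.

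The rest of the pathway gives the setting of the 8 genes. Of 70 genes in 7 lists (receptors, co-receptors, ligands, antagonists and proprotein convertases, the 8 members included), 43 had at least 50 UMIs, 6 were at least 1.2-fold higher in the S1/5 dKO-labelled library, 13 were at least 1.2-fold lower and 7 had 0 UMIs. Of all 13654 genes at that minimum 9.13% were higher and 11.4% lower by this fold. The median log2 ratio was −0.14 for the 43 and −0.01 for the 13654. Such folds are more frequent where counts are low: of the 2305 genes with at least 50 but under 200 UMIs, 23.5% were higher and 28.5% lower. Among the 7 type I receptors, *Bmpr1a* was the highest and *Tgfbr1*, the TGF-β type I receptor, the next (5.39 CPM in WT, 4.89 in the S1/5 dKO-labelled library). *Acvrl1*, a BMP9 receptor of endothelium, had 28 and 44 UMIs (log2 ratio 0.47, −0.25 to 1.21). Of the 5 type II receptors, *Acvr2b* was followed by *Amhr2*, the receptor of anti-Müllerian hormone (8.89 and 10.2 CPM), and *Tgfbr2*, without which TGF-β does not signal, had 38 and 29 UMIs (log2 ratio −0.57, −1.32 to 0.16).

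Of the 8 co-receptors and receptor-associated proteins, 5 were at least 1.2-fold lower (11.4% of all genes tested) and 1 higher (9.13%). *Bambi*, a pseudoreceptor that dampens BMP and TGF-β signaling, was at 15.1 CPM in WT against 11.97 CPM in the S1/5 dKO-labelled library (log2 ratio −0.34, −0.45 to −0.23). The co-receptor *Eng* (log2 ratio −0.27), the BMP co-receptors *Rgma* (−0.36) and *Rgmb* (−0.27), and *Tgfbr3* (−0.83, 36 and 23 UMIs) were also lower, with an interval for *Rgma* that held 0. *Hfe2*, a co-receptor of the same RGM family, was higher (102 and 204 UMIs, log2 ratio 0.82). The most abundant of the list were *Tdgf1*, the NODAL co-receptor (425 and 435 CPM), and *Fkbp1a*, which holds type I receptors inactive (267 and 272 CPM).

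Of 21 BMP and GDF ligands, *Gdf3* and *Bmp4* were the most abundant, 7 had at least 50 UMIs and 6 had 0 UMIs in either library. *Bmp2*, which acts through the same receptors as *Bmp4*, had 5 and 9 UMIs. *Bmp7* (148 and 133 UMIs, log2 ratio −0.34, −0.69 to 0.01) and *Bmp8b* (40 and 33 UMIs, −0.46, −1.17 to 0.24) were at least 1.2-fold lower, with intervals that held 0. *Bmp4* was the only one of the 7 at least 1.2-fold higher. By this fold 9.13% of all genes tested were higher and 11.4% lower. Of the 7 activin, NODAL and TGF-β ligands with at least 50 UMIs, 2 were at least 1.2-fold higher and 0 lower, where 9.13% and 11.4% of all genes tested were. These were the NODAL antagonists *Lefty1* (24.04 and 52.5 CPM, log2 ratio 1.13, 1.06 to 1.198) and *Lefty2* (14.2 and 24.9 CPM, log2 ratio 0.81, 0.72 to 0.91). *Nodal* itself, the ligand that signals through *Acvr1b* and *Acvr2b*, was at 47.3 and 41.8 CPM (log2 ratio −0.18, −0.24 to −0.12).

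Of the 8 secreted antagonists with at least 50 UMIs, 4 were at least 1.2-fold lower (11.4% of all genes tested) and 1 higher (9.13%), and *Nog*, *Grem1* and *Fstl3* among them had under 200 UMIs. *Fst* (follistatin, which binds activins and BMPs) was at 6.79 and 5.39 CPM (log2 ratio −0.33, −0.50 to −0.17). The BMP antagonists *Nog* (57 and 41 UMIs, log2 ratio −0.66, −1.28 to −0.06) and *Grem1* (41 and 29 UMIs, −0.68, −1.42 to 0.04), and *Twsg1* (3.69 and 3.07 CPM, −0.26) were also lower, and *Fstl3* was higher (29 and 54 UMIs, 0.71, 0.04 to 1.42). *Furin*, which cleaves BMP precursors, was at 2.62 and 2.05 CPM (log2 ratio −0.35, −0.62 to −0.09). *Pcsk6* (8.22 and 7.15 CPM) and *Pcsk7* (6.46 and 5.93 CPM) were the most abundant convertases of the 4 listed and did not reach 1.2-fold.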

How the data were processed

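Per the labels and the submitters' processing notes, the authors made the UMI counts with Cell Ranger 3.0.2 on mm10, and the deposited matrices hold these raw counts for all barcodes of the kit, without normalization. Everything else was computed here. Barcodes were filtered as in the study, and no doublets were removed. Counts were log-normalized (scale factor 10000), integrated through anchors (2000 variable genes, 30 principal components) and clustered at resolution 0.5 in Seurat 5.3.0 on R 4.3.3. A ratio is the UMIs of a gene summed over cells and divided by the total. Thinning drew UMIs without replacement, and the thinned share of cells with a UMI of a member is an expectation over all draws. Co-detection, variances, r, the *Id1* classes and shares of cells with at least 3 UMIs are from 1 random draw. Cell types were named from fixed marker lists, where a marker was raised if at least 1.5 times as high as in the other cells and seen in at least 10% of the cluster. Only the 2C-like, ER-like and ribosomal RNA lists could give a name. Gene positions and overlaps are from GENCODE for GRCm38.

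The members, lists and tests were chosen with earlier results of these data known. Genes named are the members, pathway genes at least 1.2-fold apart with at least 50 UMIs or among the 2 highest of their list, like genes with r of at least 0.2 in WT, *Smad1*, *Smad5*, mESC markers and the 5 leading genes of a cluster. Genes outside this rule (*Id1*, *Id2*, *Id3*, *Tmsb4x*, overlapping genes, *Bmp2*, *Inhbe*) were named with their values known. The ratio intervals and thinning were tested on simulated data. Python 3.11.15, numpy 2.4.6, scipy 1.17.1, pandas 2.3.3, matplotlib 3.10.9 and edgeR 4.0.16 (TMM factors only) were used. The alternatives were other cell filters, clusterings, scalings, minimums and thinnings.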

Additional observations from a re-analysis of the deposited data

How the results depend on the processing

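No paired analysis was possible because each genotype has 1 library and no test between them was run. The 8 member ratios were recomputed under 10 alternatives each, and 76 of these 80 values lay within the interval reported and 0 reversed a ratio whose interval left out 0. In 1 random thinning to 10000 UMIs the log2 ratio was −0.39 for *Bmpr1a*, 0.82 for *Acvr1b* and 0.43 for *Bmp4*, and the expectation over all thinnings, added after seeing the data, kept these within their intervals, so the single draw moved them. With clusters weighted equally *Gdf3* was at −0.21. The *Bmp4* ratio stayed between 0.35 and 0.43 and that of *Bmpr1a* between −0.39 and −0.24. TMM and median scaling shifted all ratios by 0.01 (log2). Of the pathway genes at least 1.2-fold lower, 13 with the minimum of 50 UMIs, 7 were counted with a minimum of 200 UMIs (29 genes) and 3 with a fold of 1.5. With TMM scaling 11 were lower and 7 higher, against 13 and 6 as reported. *Twsg1* (log2 ratio −0.264) and *Eng* (−0.268) were the lower genes nearest to the 1.2-fold line. The share of all genes was not computed at these settings. The number of members whose shares of cells did not overlap between libraries was 1 after thinning to 10000 UMIs (*Bmp4*), 2 after thinning to 5000 UMIs (*Bmp4*, *Gdf3*) and 3 in 1 random thinning (*Bmpr1a*, *Bmp4*, *Gdf3*). Without thinning it was 1, *Bmpr1a*, in libraries of unequal depth. The share of all genes (4.92%) was computed only for the average over all thinnings to 10000 UMIs. The counts at the other settings therefore have no share of all genes to be read against. All 4 other clusterings gave a number of members with a 1.5-fold range within 1.5 times of 6. With 1 library per genotype, culture, line and genotype cannot be told apart. The intervals of *Acvr1* and *Acvr2a* hold a ratio as large as that of *Bmp4*, and those of *Acvr1b* and *Bmpr2* do not.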

Other observations

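*Inhbe*, which encodes the activin βE subunit, had 1 UMI in WT cells and 21 UMIs in S1/5 dKO-labelled cells, a log2 ratio of 4.21 with an exact 95% interval from 1.57 to 9.58. It stayed under the minimum of 50 UMIs and was noticed after its values were seen.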
